A study of Mus musculus with 2 samples.

Results

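Medial habenula neurons of the Tac2 side were taken from single-cell RNA sequencing of the thalamus of 2 wildtype C57BL/6J mice, aged 2 months and untreated. C57BL/6J is a common inbred laboratory strain, and each mouse gave 1 library made with the 10x 3' kit, version 3. Both mice form 1 group, so the comparisons set neurons of the same 2 animals against each other. Nothing in the labels limits the dissection to a nucleus, and the cells came from tissue treated with papain, an enzyme the labels spell protase, and dispase.

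A cell counted as a member when it had at least 500 genes, at least 5000 unique molecular identifiers (UMIs) and at most 15% mitochondrial UMIs, and met 4 further conditions. These were at least 2 UMIs of Chrnb4, at least 5 of Snap25 and Syt1 together, at most 2 of Gad1 and Gad2 together, and not at least 5 UMIs of Tac1 with Tac1 above Tac2. The rule therefore removes cells in which Tac1 leads, called the Tac1 side. It keeps Tac1 cells with as much or more Tac2 and does not ask for Tac2. It found 126 of the 6019 in mouse 1 (2.09%, exact 95% interval 1.75 to 2.49) and 216 of 8527 in mouse 2 (2.53%, 2.21 to 2.89), that is 342 of 14546 cells that passed the limits and of 19996 barcodes in all. The 3 groups set beside these Tac2 side neurons were the Tac1 side of the same gate (0 cells in mouse 1 and 8 in mouse 2), other VGLUT2 neurons (Chrnb4 at 0, Slc17a6 at least 2 UMIs; 306 and 1997 cells) and GABAergic neurons (Gad1 and Gad2 together at least 5; 67 and 163 cells). The members were chosen by measured values. Because Chrnb4, Snap25, Syt1, Gad1, Gad2, Tac1, Tac2 and, for the VGLUT2 comparison, Slc17a6 chose the cells, their levels are given as a description only.

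The habenula is a small paired structure beside the dorsal thalamus, and its medial part sends its axons through the fasciculus retroflexus to the interpeduncular nucleus. Its neurons are known for a dense supply of nicotinic acetylcholine receptors built on the alpha3 and beta4 subunits, for spontaneous tonic firing, and for a part in nicotine aversion and withdrawal. A dorsal division makes substance P from Tac1, and a ventral division makes acetylcholine together with glutamate. Tac2 encodes the precursor of neurokinin B.

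All values are counts summed per mouse and group, scaled to a common total (CPM), with mouse 1 given before mouse 2. Log2 fold changes are estimates ± SE from edgeR's quasi-likelihood test on these sums with the mouse as a block, and calls needed a p below 0.05 after Benjamini-Hochberg adjustment over all genes tested together with a log2 fold change of 1 or more in either direction. Tac2 side neurons had a median of 52556 UMIs per cell in mouse 1 and 32288.5 in mouse 2, against 80914 and 42058 in other VGLUT2 neurons. Their median mitochondrial share was 6.03% and 3.57%, against 3.73% and 2.63% in other VGLUT2 neurons, and the share of ribosomal protein UMIs was 3.02% and 4.25%, against 1.78% and 2.02%; the part of these in the results was tested only by other limits on both shares. The whole libraries held 163418203 and 204839993 UMIs. Scrublet marked 4 and 8 members as doublets, and they stayed in the main values. The libraries shared 36 barcodes, of which 1 belonged to a member in mouse 1 and none to a member in mouse 2.

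The marker genes given with the name were present, though the rule itself used Chrnb4 and Tac2. Together with Chrna3 and Zic1 they summed to 2704 and 2545 CPM in Tac2 side neurons, against 359.5 and 249 CPM in other VGLUT2 neurons. Chrna3 was not part of the rule and had a UMI in 100% and 95.8% of members, against 2.05% and 0% of microglia-gated and 1.90% and 0.725% of oligodendrocyte-gated cells, whose median depths were 13107.5 and 9452.5 UMIs and 24453 and 14573 UMIs. Lateral habenula markers (5 of 5 detected) summed to 26.7 and 138 CPM in Tac2 side neurons, against 1398 and 1566 CPM in other VGLUT2 neurons. Thalamic glutamatergic markers (7 of 7 detected) summed to 329.9 and 414 CPM in Tac2 side neurons, against 3802 and 3185 CPM in other VGLUT2 neurons and 304 and 377 CPM in microglia-gated cells. Of the GABAergic markers, Gata3 and Lhx1 were at 0 in members of both mice, and the whole list, in which the rule caps Gad1 and Gad2, summed to 2.52 and 1.23 CPM. Oligodendrocyte markers summed to 1259 and 1955 CPM, astrocyte markers to 65.8 and 41.8 CPM, microglial markers to 190.1 and 92.6 CPM and haemoglobin genes to 155 and 26.0 CPM. The part of these RNAs in the results below was tested only by leaving out cells rich in glial RNA.

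At the edge of the gate, cells with exactly 2 Chrnb4 UMIs (11 and 32 cells) had 121 and 135 CPM of Chrna3, and cells just outside with 1 UMI (25 and 61 cells) had 33.9 and 56.5 CPM. Tac2 stood at 81.8 and 936 CPM just inside and at 478 and 211 CPM just outside. Rora, a nuclear receptor of thalamic relay neurons, stood at 419 and 811 CPM just inside, against 1229 and 1457 CPM just outside. The members with at least 4 Chrnb4 UMIs (106 and 165 cells) had 391 and 354 CPM of Chrna3.

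Nicotinic receptor subunits of the alpha3, beta3 and alpha5 types set Tac2 side neurons apart from other VGLUT2 neurons, while the subunits of the common alpha4 beta2 and alpha7 receptors did not pass the test. Over all 16362 genes tested, 3267 (20.0%) were called in this comparison, 1269 (7.76%) higher and 1998 (12.2%) lower in Tac2 side neurons, with a median log2 fold change of −0.02. Of the 8 nicotinic subunits tested without the gate gene, 3 were called higher and none lower, with a median of 0.53. Chrna3, the alpha3 subunit that pairs with beta4, had 367 and 317 CPM in Tac2 side neurons, against 1.74 and 2.16 CPM in other VGLUT2 neurons. It stood far above other VGLUT2 and GABAergic neurons in both mice, and its log2 fold change over other VGLUT2 neurons was 7.32 ± 0.84 (edgeR adjusted p = 0.00651). Chrnb3, an accessory beta subunit, had 190.2 and 96.2 CPM in Tac2 side neurons, against 0.757 and 0.877 CPM in other VGLUT2 neurons, a log2 fold change of 7.08 ± 1.04 (edgeR adjusted p = 0.0125). GABAergic neurons carried Chrnb3 at 49.6 and 2.99 CPM, so the gene was not limited to the habenula in mouse 1. Chrna5, the accessory alpha5 subunit, was called as well, but on few molecules: 15 and 33 UMIs (2.22 and 4.49 CPM) in Tac2 side neurons, against 1 and 4 UMIs in other VGLUT2 neurons. Chrnb4 itself, the gate gene, had 178 and 204 CPM, with a median of 9 and 6 UMIs per member.

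The subunits of the brain's most widespread nicotinic receptors gave no call. Chrna4 had 14.4 and 45.5 CPM in Tac2 side neurons, against 87.5 and 53.6 CPM in other VGLUT2 neurons; the estimate was −1.29 ± 0.65 and mouse 2 showed little difference. Chrnb2 had 37.7 and 29.6 CPM in Tac2 side neurons, against 42.1 and 26.7 CPM in other VGLUT2 neurons, and the groups overlapped. Chrna7, the subunit of homomeric alpha7 receptors, had 8.45 and 6.13 CPM in Tac2 side neurons, against 6.25 and 11.8 CPM in other VGLUT2 neurons, with opposite directions in the mice. Chrna6 reached only 3.11 and 0.953 CPM in Tac2 side neurons, against 1.44 and 0.337 CPM in other VGLUT2 neurons and 24.9 and 1.496 CPM in GABAergic neurons. Chrna1, Chrna2, Chrna10, Chrnd and Chrng had no UMI in any member.

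Proteins that act on nicotinic receptors were lower where they were called. In this list 4 of 9 genes were called lower and none higher, with a median of −0.96. Lypd6, a membrane-tethered modulator of nicotinic receptors, had 2.52 and 2.996 CPM in Tac2 side neurons, against 117 and 57.2 CPM in other VGLUT2 neurons (log2 fold change −4.94 ± 0.37). Its relative Lypd6b had 2.37 and 0.953 CPM in Tac2 side neurons, against 119.8 and 62.7 CPM in other VGLUT2 neurons (−5.81 ± 0.34). Lynx1, a brake on nicotinic receptors of the same protein family, was lower by a smaller margin, with 44.9 and 24.7 CPM in Tac2 side neurons, against 140.3 and 57.3 CPM in other VGLUT2 neurons (−1.48 ± 0.17). Lypd1 was the remaining call (−4.23 ± 0.40). The chaperones Ric3 and Tmem35a (NACHO), which help nicotinic receptors to assemble, did not pass the test. Ric3 had 52.2 and 43.4 CPM in Tac2 side neurons, against 56.5 and 45.02 CPM in other VGLUT2 neurons. Tmem35a had 43.1 and 38.3 CPM in Tac2 side neurons, against 37.7 and 37.4 CPM in other VGLUT2 neurons.

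Chrna5, Chrna3 and Chrnb4 are neighbours. In GENCODE vM21 (GRCm38) they lie on chromosome 9 within 67900 bases: Chrna5 at 54980880 to 55007779 on the plus strand, Chrna3 at 55010111 to 55026562 and Chrnb4 at 55028154 to 55048779, both on the minus strand. The promoters of Chrna3 and Chrnb4 are shown because these are the subunits of the gate and of its most widespread partner in the members. Each run is 300 bases from RefSeq (GRCm38.p6, minus strand), 250 before to 50 after the gene's start, with capitals for the GC box GGGCGG and the CACCC box CCACCC, each searched on both strands.
Chrna3, chr9:55026513-55026812: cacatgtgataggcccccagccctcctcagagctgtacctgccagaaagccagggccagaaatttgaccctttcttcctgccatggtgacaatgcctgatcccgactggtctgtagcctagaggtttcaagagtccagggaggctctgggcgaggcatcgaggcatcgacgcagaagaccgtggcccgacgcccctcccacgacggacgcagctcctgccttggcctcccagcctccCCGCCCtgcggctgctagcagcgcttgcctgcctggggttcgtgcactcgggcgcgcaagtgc
Chrnb4, chr9:55048495-55048794: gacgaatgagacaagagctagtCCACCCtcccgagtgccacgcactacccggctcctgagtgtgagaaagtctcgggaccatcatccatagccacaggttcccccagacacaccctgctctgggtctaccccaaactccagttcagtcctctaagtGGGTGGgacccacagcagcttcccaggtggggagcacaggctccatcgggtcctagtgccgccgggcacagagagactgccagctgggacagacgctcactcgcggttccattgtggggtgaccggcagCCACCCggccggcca
The Chrna3 window holds 1 GC box and no CACCC box, and the Chrnb4 window holds 3 CACCC boxes and no GC box. Of 32851 promoters of the same length, 11714 (35.7%) hold a GC box and 10340 (31.5%) a CACCC box, so these matches are a description of the letters and not of a bound site.

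**Figure D1:**
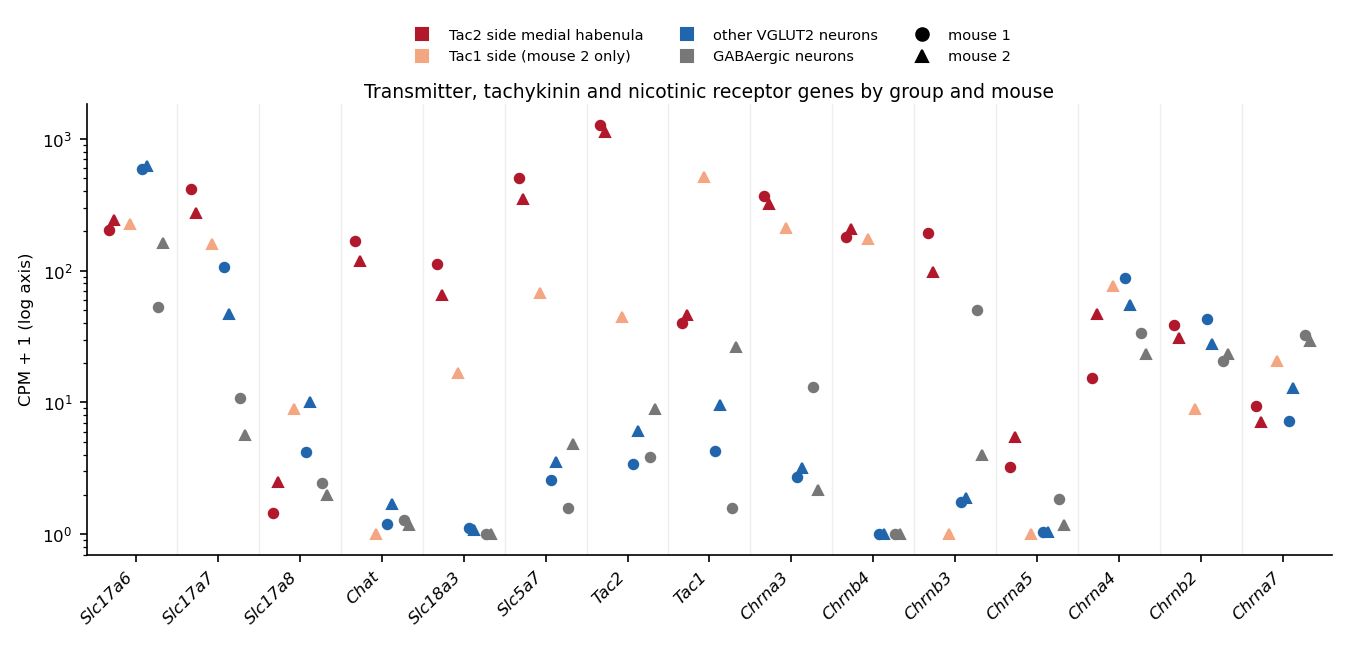
CPM + 1 on a log axis for transmitter, tachykinin and nicotinic receptor genes in Tac2 side neurons, the Tac1 side (mouse 2 only), other VGLUT2 neurons and GABAergic neurons. Circles are mouse 1 and triangles mouse 2; Chat, Slc18a3, Slc5a7 and Chrna3 lie far above the VGLUT2 and GABAergic neurons in both mice, while Chrnb2 and Chrna7 overlap. Chrnb4, Tac1, Tac2 and Slc17a6 chose the cells.

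Genes for making, loading and taking up acetylcholine or its precursor were higher in Tac2 side neurons, which also carried the vesicular glutamate transporters VGLUT1 and VGLUT2. In the cholinergic list 5 of 10 genes were called higher and none lower, with a median of 0.71. Chat, choline acetyltransferase, had 165 and 117 CPM in Tac2 side neurons, against 0.189 and 0.686 CPM in other VGLUT2 neurons, a log2 fold change of 8.02 ± 0.51 (edgeR adjusted p = 0.00103). Slc18a3, the vesicular acetylcholine transporter, had 111 and 64.1 CPM in Tac2 side neurons, against 0.114 and 0.0787 CPM in other VGLUT2 neurons (9.63 ± 0.26). Slc5a7, the high-affinity choline transporter, had 506 and 348 CPM in Tac2 side neurons, against 1.59 and 2.55 CPM in other VGLUT2 neurons (7.65 ± 0.61). Each of these genes was higher in Tac2 side neurons of both mice. Acly, which supplies acetyl-CoA, was called at a smaller size, with 179 and 171 CPM in Tac2 side neurons, against 60.2 and 57.9 CPM in other VGLUT2 neurons (1.53 ± 0.16). Prima1, the membrane anchor of acetylcholinesterase in brain, had 57.4 and 37.7 CPM in Tac2 side neurons, against 2.88 and 2.32 CPM in other VGLUT2 neurons (4.15 ± 0.40). The enzyme itself was not called: Ache had 36.6 and 22.7 CPM in Tac2 side neurons, against 66.3 and 47.1 CPM in other VGLUT2 neurons, with an estimate of −0.99 ± 0.14 that misses the fold limit. Choline kinase alpha (Chka, −0.93 ± 0.17) and the choline transporter Slc44a1 were not called either.

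Among glutamate release genes 1 of 9 was called higher and 2 lower, with a median of −0.48. Slc17a7, the vesicular transporter VGLUT1, had 412 and 273 CPM in Tac2 side neurons, against 105 and 45.9 CPM in other VGLUT2 neurons (2.24 ± 0.20, edgeR adjusted p = 0.000711). Slc17a6, VGLUT2, which chose the other group, had 202 and 240.1 CPM in Tac2 side neurons, against 589 and 619 CPM in other VGLUT2 neurons. The third transporter, VGLUT3 (Slc17a8), was nearly absent at 0.445 and 1.498 CPM in Tac2 side neurons, against 3.18 and 9.16 CPM in other VGLUT2 neurons (−2.66 ± 0.54). Gls2, an enzyme that makes glutamate from glutamine, was called lower with 5.63 and 4.49 CPM in Tac2 side neurons, against 15.5 and 18.8 CPM in other VGLUT2 neurons (−1.80 ± 0.24).

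Acetylcholine and glutamate genes were found in the same cells. Chat was detected together with VGLUT1 or VGLUT2 in 117 of 126 members of mouse 1 (92.9%) and in 174 of 216 of mouse 2 (80.6%), against 4 of 306 (1.31%) and 14 of 1997 (0.701%) other VGLUT2 neurons. The same pair of genes was seen in none of the oligodendrocyte-gated cells (1424 and 1655) and none of the microglia-gated cells (732 and 296). All 3 of Chat, Slc18a3 and Slc5a7 were detected in 84 (66.7%) and 138 (63.9%) members. Both VGLUTs were detected in 117 and 197 members. With every cell thinned to 5000 UMIs, Chat with a VGLUT was detected in 46 members of mouse 1 (36.5%) and 71 of mouse 2 (32.9%), against 1 and 9 other VGLUT2 neurons. These shares are counts of detection at a given depth and not of cells that make the transmitter.

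Chat and Slc18a3 share a locus, the cholinergic gene locus, in which the transporter gene lies inside the enzyme gene. On chromosome 14 of GRCm38 Slc18a3 occupies 32462438 to 32464850 within Chat at 32408203 to 32465989, both on the minus strand. No source used here gives the strand setting or the handling of introns, so reads of the shared stretch may be assigned to either gene and the split between them is uncertain. The starts of both are shown with the same marking as for the nicotinic pair.
Slc18a3, chr14:32464801-32465100: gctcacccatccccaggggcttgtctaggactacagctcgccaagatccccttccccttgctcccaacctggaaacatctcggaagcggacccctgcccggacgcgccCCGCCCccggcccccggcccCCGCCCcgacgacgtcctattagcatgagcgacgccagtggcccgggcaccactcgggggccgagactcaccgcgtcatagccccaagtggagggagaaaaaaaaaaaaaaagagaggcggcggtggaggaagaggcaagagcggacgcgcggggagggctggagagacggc
Chat, chr14:32465860-32466159: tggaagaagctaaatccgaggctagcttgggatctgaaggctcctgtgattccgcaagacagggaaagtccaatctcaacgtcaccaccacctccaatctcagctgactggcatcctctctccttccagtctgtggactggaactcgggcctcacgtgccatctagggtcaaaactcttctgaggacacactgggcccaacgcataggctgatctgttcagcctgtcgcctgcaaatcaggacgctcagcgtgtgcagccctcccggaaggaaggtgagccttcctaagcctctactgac
Slc18a3 has 2 GC boxes and no CACCC box in this window, and Chat has neither. Slc18a2, the vesicular monoamine transporter, was called higher as well, though at a low level, with 5.34 and 6.54 CPM in Tac2 side neurons, against 0.947 and 2.02 CPM in other VGLUT2 neurons (2.03 ± 0.41). The list of GABA, glycine and monoamine genes had 2 of 11 called higher and 1 lower, with a median of 0.36. Maob, a monoamine oxidase, had 3.85 and 20.3 CPM in Tac2 side neurons, against 29.8 and 112 CPM in other VGLUT2 neurons (−2.75 ± 0.34). Slc32a1, the vesicular GABA transporter, had 1 and 0 UMIs in all members.

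Neuropeptides differed from other VGLUT2 neurons in both directions, with Nppa among those higher. The list had 6 of 25 genes called higher and 9 lower, with a median of −2.74. Tac2, a gate gene, had 1281 and 1119 CPM, with a median of 46 and 41 UMIs per member and none in 14 and 26 members. Nppa, the precursor of atrial natriuretic peptide, had 97.0 and 186 CPM in Tac2 side neurons, against 0.379 and 0.697 CPM in other VGLUT2 neurons (7.98 ± 0.20, edgeR adjusted p = 6.78e-05). Nppa was not particular to the Tac2 side. Its log2 fold change over the Tac1 side was −0.76 in mouse 2, the only mouse with such cells. Of the smaller calls, Spx (spexin) had 13.0 and 25.2 CPM in Tac2 side neurons, against 3.18 and 3.77 CPM in other VGLUT2 neurons (2.37 ± 0.29). Il18, an interleukin found in the medial habenula of mice, had 19.6 and 23.6 CPM in Tac2 side neurons, against 7.04 and 11.5 CPM in other VGLUT2 neurons (1.22 ± 0.24). It was detected in 46.8% and 45.8% of members, against 59.7% and 40.5% of microglia-gated and 87.4% and 73.7% of oligodendrocyte-gated cells, and its call was lost without the mouse block or the Slc17a6 clause. Cck, cholecystokinin, was lower in Tac2 side neurons, with 41.7 and 71.2 CPM in Tac2 side neurons, against 512 and 488 CPM in other VGLUT2 neurons (−3.27 ± 0.31), a call lost without cells rich in glial RNA. Gal (galanin) had 0 and 2 UMIs in members, against 7.61 and 26.3 CPM in other VGLUT2 neurons.

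Genes that process and release peptides were split evenly, with 4 of 15 called higher and 4 lower and a median of −0.05. The CAPS pair, which primes dense-core vesicles, was split. Cadps2 had 1144 and 1073 CPM in Tac2 side neurons, against 19.1 and 30.6 CPM in other VGLUT2 neurons (5.44 ± 0.32), whereas Cadps had 31.9 and 69.5 CPM in Tac2 side neurons, against 838 and 804 CPM in other VGLUT2 neurons (−4.11 ± 0.38). Both differences were seen in each mouse. The prohormone convertase Pcsk1 (1.77 ± 0.17) and the amidating enzyme Pam (1.37 ± 0.18) were higher. Scg3, a granin, was higher (1.81 ± 0.22), and Chga (−1.51 ± 0.14) and Vgf (−3.95 ± 0.58, lost with no filter on low counts) were lower. Over the Tac1 side in mouse 2 the log2 fold change was 0.51 for Cadps2, −0.34 for Pcsk1, 0.89 for Pam and 0.05 for Scg3.

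Peptide receptors had 6 of 38 genes called higher and 15 lower, with a median of −2.88. Tacr1, the receptor of substance P, had 163 and 167 CPM in Tac2 side neurons, against 4.85 and 8.27 CPM in other VGLUT2 neurons (4.73 ± 0.68). Gpr151, an orphan receptor carried by habenular axons, had 143 and 279.8 CPM in Tac2 side neurons, against 5.30 and 11.8 CPM in other VGLUT2 neurons (4.62 ± 0.17, edgeR adjusted p = 8.32e-05). Sstr2, a somatostatin receptor, had 72.9 and 71.6 CPM in Tac2 side neurons, against 1.44 and 3.38 CPM in other VGLUT2 neurons (4.89 ± 0.32). The orphan receptor Gpr139 (2.83 ± 0.24) and Calcrl, the calcitonin receptor-like receptor (4.25 ± 0.76), were higher too. None of the receptors named so far in this list was above the Tac1 side in mouse 2, the only mouse with such cells. Over the Tac1 side the log2 fold change was −0.35 (Tacr1), −1.36 (Gpr151), −1.24 (Sstr2), −1.33 (Gpr139) and −1.10 (Calcrl). Ramp3, a partner protein of Calcrl, was lower, with 4.003 and 13.2 CPM in Tac2 side neurons, against 195 and 134 CPM in other VGLUT2 neurons (−4.23 ± 0.71). Oprm1, the mu opioid receptor for which the medial habenula is known, had 71.6 and 289 CPM in Tac2 side neurons, against 60.3 and 185 CPM in other VGLUT2 neurons and was not called. With no filter on low counts Tacr1, Ramp3 and Calcrl were not called, and Calcrl was also lost without the Slc17a6 clause.

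Receptors for monoamines, acetylcholine, purines and cannabinoids had 3 of 37 genes called higher and 19 lower, with a median of −1.97. Htr5b, a serotonin receptor, had 93.8 and 121 CPM in Tac2 side neurons, against 1.17 and 1.30 CPM in other VGLUT2 neurons (6.41 ± 0.30), and Htr4, which couples to cyclic AMP production, had 266 and 305 CPM in Tac2 side neurons, against 11.7 and 15.3 CPM in other VGLUT2 neurons (4.36 ± 0.17). In mouse 2 the log2 fold change over the Tac1 side was −0.39 for Htr5b and 0.04 for Htr4. Another serotonin receptor, Htr7, was lower, with 3.56 and 8.31 CPM in Tac2 side neurons, against 71.3 and 104 CPM in other VGLUT2 neurons (−3.99 ± 0.24). Chrm2, an inhibitory muscarinic receptor, had 4.003 and 6.81 CPM in Tac2 side neurons, against 96.1 and 126 CPM in other VGLUT2 neurons (−4.39 ± 0.52). The alpha1 adrenergic receptor Adra1b had 1.63 and 7.35 CPM in Tac2 side neurons, against 88.6 and 88.1 CPM in other VGLUT2 neurons (−4.43 ± 0.52).

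Both GABA-B receptor genes were higher in Tac2 side neurons, and their auxiliary subunits differed in both directions. The list had 5 of 15 genes called higher and 6 lower, with a median of −0.69. Gabbr1 had 1775 and 1689.7 CPM in Tac2 side neurons, against 565 and 437 CPM in other VGLUT2 neurons (1.76 ± 0.20). Gabbr2 had 1753 and 1839 CPM in Tac2 side neurons, against 920.5 and 786 CPM in other VGLUT2 neurons (1.04 ± 0.19), a call at the fold limit that was lost under 5 alternatives. The KCTD proteins bind GABA-B receptors and shape their signalling. Kctd8 had 1878 and 1815 CPM in Tac2 side neurons, against 50.6 and 106 CPM in other VGLUT2 neurons (4.58 ± 0.34, edgeR adjusted p = 0.000484), and Kctd12b had 70.1 and 82.0 CPM in Tac2 side neurons, against 1.10 and 1.495 CPM in other VGLUT2 neurons (5.83 ± 0.19, edgeR adjusted p = 6.78e-05). Kctd16 differed the other way, with 15.4 and 35.8 CPM in Tac2 side neurons, against 541 and 380.4 CPM in other VGLUT2 neurons (−4.29 ± 0.48), and Kctd12 was not called. The potassium channels that GABA-B receptors open were lower in part: Kcnj3 (GIRK1) had 12.009 and 26.0 CPM in Tac2 side neurons, against 359 and 251 CPM in other VGLUT2 neurons (−4.11 ± 0.46) and Kcnj9 (GIRK3) stood at −1.82 ± 0.27, while Kcnj6 (GIRK2) was not called at −0.69 ± 0.17.

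Subunits of GABA-A and glycine receptors were mostly lower: 14 of 19 were called lower and 1 higher, with a median of −3.87. Gabra4, an extrasynaptic subunit of thalamic relay neurons, had 6.37 and 32.8 CPM in Tac2 side neurons, against 594 and 431 CPM in other VGLUT2 neurons (−5.03 ± 0.79). Gabrb2, a beta subunit, had 5.34 and 23.0 CPM in Tac2 side neurons, against 357 and 339.9 CPM in other VGLUT2 neurons (−4.85 ± 0.62). Gabra2 was the single subunit called higher, with 285 and 456 CPM in Tac2 side neurons, against 105 and 204 CPM in other VGLUT2 neurons (1.26 ± 0.17, a call lost without the mouse block). Gphn, the scaffold of inhibitory synapses, had 1129 and 574 CPM in Tac2 side neurons, against 1259 and 676 CPM in other VGLUT2 neurons and was not called. Gabrg3 (−4.31 ± 0.77) and the glycine receptor subunit Glra2 (−6.08 ± 0.25) were further lower calls. With no filter on low counts Gabra4, Gabrb2 and Gabrg3 were not called, and Gabrg3 was also lost at 5% mitochondrial UMIs.

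Glutamate receptors followed a like count. Of the ionotropic receptors and their auxiliary subunits, 15 of 32 were called lower and 2 higher, with a median of −0.69, and of the metabotropic receptors 5 of 7 lower and 1 higher, with a median of −3.29. Gria1, an AMPA receptor subunit, was one of those higher, with 1226 and 1104 CPM in Tac2 side neurons, against 416 and 394 CPM in other VGLUT2 neurons (1.48 ± 0.18). Grin2b, an NMDA receptor subunit, had 44.3 and 113 CPM in Tac2 side neurons, against 1636 and 1084 CPM in other VGLUT2 neurons (−4.20 ± 0.58), and Grik1, a kainate receptor subunit, had 6.97 and 26.3 CPM in Tac2 side neurons, against 362 and 274 CPM in other VGLUT2 neurons (−4.38 ± 0.69). The AMPA receptor auxiliary subunits Cacng2 (stargazin, −4.94 ± 0.86), Shisa6 (−4.79 ± 0.90) and Shisa9 (−4.63 ± 1.01) were lower. Grm7, a presynaptic receptor, had 33.8 and 158 CPM in Tac2 side neurons, against 1366 and 1770.0 CPM in other VGLUT2 neurons (−4.34 ± 0.60). Grm3 was the metabotropic receptor called higher, with 162 and 163 CPM in Tac2 side neurons, against 79.1 and 49.1 CPM in other VGLUT2 neurons (1.34 ± 0.21), and Grm4 (−4.00 ± 0.34) and Grm8 (−4.08 ± 0.30) were lower. Cacng2, Shisa6, Shisa9 and Grik1 were not called with no filter on low counts, Shisa6 and Shisa9 not at 5% mitochondrial UMIs, and Grm3 not without the Slc17a6 clause.

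**Figure D2:**
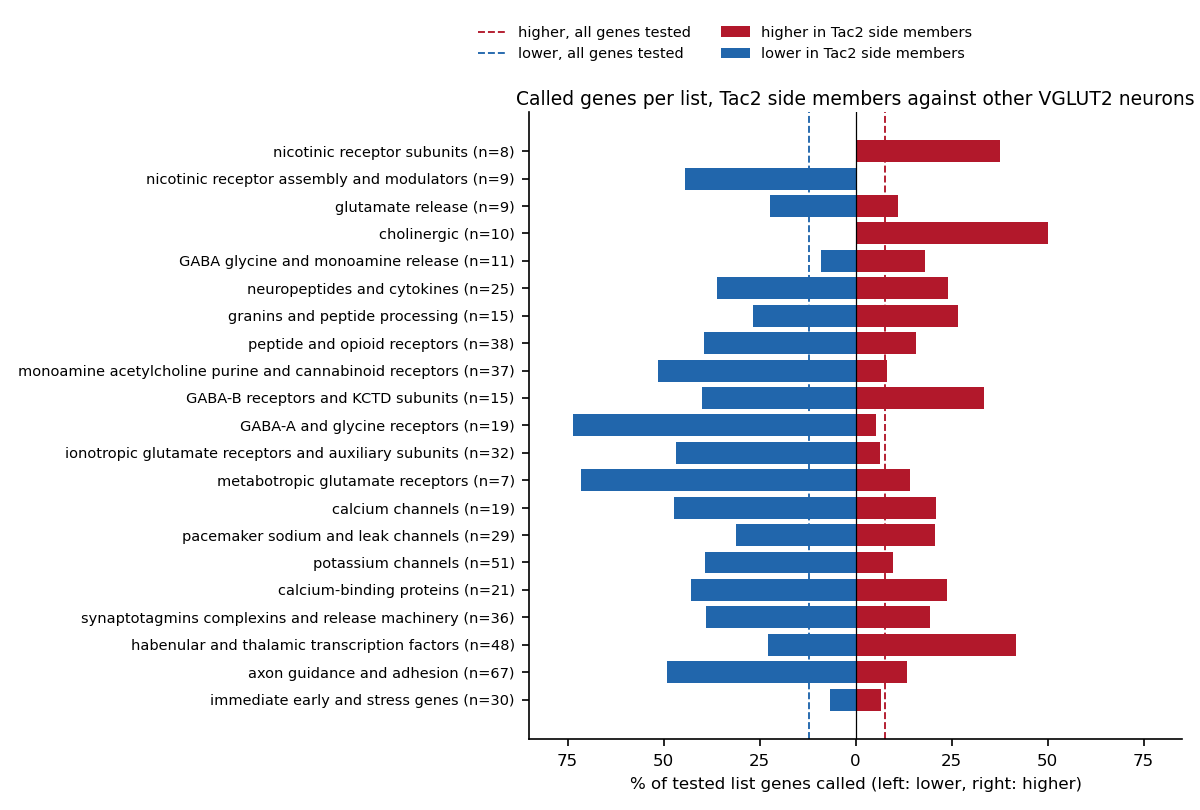
Share of the tested genes of each list called higher (right) or lower (left) in Tac2 side neurons against other VGLUT2 neurons; dashed lines mark the shares over all genes tested, 7.76% higher and 12.2% lower. Cholinergic genes, nicotinic subunits and transcription factors reach furthest to the right, and GABA-A and metabotropic glutamate receptors furthest to the left.

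In the calcium channel list 4 of 19 genes were called higher and 9 lower, with a median of −1.36. The genes of presynaptic P/Q-type and N-type channels were scarce: Cacna1a had 9.34 and 32.1 CPM in Tac2 side neurons, against 522 and 454 CPM in other VGLUT2 neurons (−4.73 ± 0.58), and Cacna1b had 1.04 and 15.1 CPM in Tac2 side neurons, against 196 and 237 CPM in other VGLUT2 neurons (−5.01 ± 0.90). Cacna1e, the R-type channel, had 1343 and 1124 CPM in Tac2 side neurons, against 122 and 160.0 CPM in other VGLUT2 neurons (3.11 ± 0.23, edgeR adjusted p = 0.000404). Cacna1g, the T-type channel of thalamic burst firing, had 6.67 and 19.1 CPM in Tac2 side neurons, against 138 and 119 CPM in other VGLUT2 neurons (−3.43 ± 0.47). The auxiliary subunits showed the same pairing of one higher and another lower: Cacna2d2 had 346 and 341 CPM in Tac2 side neurons, against 45.1 and 65.8 CPM in other VGLUT2 neurons (2.60 ± 0.21), and Cacna2d1 had 10.1 and 31.1 CPM in Tac2 side neurons, against 491 and 425 CPM in other VGLUT2 neurons (−4.80 ± 0.65). Cacnb3 had 533 and 486 CPM in Tac2 side neurons, against 26.0 and 27.9 CPM in other VGLUT2 neurons (4.20 ± 0.19, edgeR adjusted p = 0.000128). The store channel Ryr2 was the remaining gene called higher (2.41 ± 0.22). Cacna1b and Cacna2d1 lost their calls with no filter on low counts.

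Among pacemaker, sodium and leak channels 6 of 29 were called higher and 9 lower, with a median of −0.40. Ano1, a calcium-activated chloride channel (TMEM16A), had 577 and 444 CPM in Tac2 side neurons, against 4.09 and 5.77 CPM in other VGLUT2 neurons (6.67 ± 0.39), and its relative Ano3 had 399.7 and 387 CPM in Tac2 side neurons, against 10.1 and 31.0 CPM in other VGLUT2 neurons (4.35 ± 0.51). Hcn4, a channel of the pacemaker current, had 48.3 and 38.3 CPM in Tac2 side neurons, against 45.4 and 21.2 CPM in other VGLUT2 neurons and was not called. Trpc4, a cation channel, had 77.4 and 70.3 CPM in Tac2 side neurons, against 3.26 and 9.93 CPM in other VGLUT2 neurons (3.63 ± 0.48). Scn3a, a sodium channel, was higher (1.62 ± 0.19), and Scn1a (−1.47 ± 0.17) was lower.

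Potassium channels had 5 of 51 genes called higher and 20 lower, with a median of −0.64. Kcnma1, the large-conductance calcium-activated channel, had 11215 and 8911 CPM in Tac2 side neurons, against 1286 and 1244 CPM in other VGLUT2 neurons (2.95 ± 0.23, edgeR adjusted p = 0.000433). Kcnd2, the A-type channel Kv4.2, had 6371 and 5293 CPM in Tac2 side neurons, against 1810.3 and 2168 CPM in other VGLUT2 neurons (1.52 ± 0.23). Its auxiliary subunits differed by member: Kcnip1 had 1618 and 1230.3 CPM in Tac2 side neurons, against 33.9 and 112 CPM in other VGLUT2 neurons (4.43 ± 0.61), whereas Kcnip4 had 98.1 and 1075 CPM in Tac2 side neurons, against 9758 and 12472 CPM in other VGLUT2 neurons (−4.89 ± 0.99). Among the members Kcnip4 was far higher in mouse 2 than in mouse 1. The Kv3 channels of fast spiking were low, with Kcnc2 at 23.1 and 83.6 CPM in Tac2 side neurons, against 1326 and 1116 CPM in other VGLUT2 neurons (−4.78 ± 0.62, lost at 5% mitochondrial UMIs), and Kcnc1 at −4.54 ± 0.61. Without the filter on low counts Kcnip1, Kcnip4, Kcnc1 and Kcnab1 were not called. Kcnab1, an auxiliary subunit of Kv1 channels, had 4.74 and 27.0 CPM in Tac2 side neurons, against 271 and 346 CPM in other VGLUT2 neurons (−4.77 ± 0.66), and Kcng4, a modifying subunit, had 27.4 and 64.6 CPM in Tac2 side neurons, against 0.416 and 0.641 CPM in other VGLUT2 neurons (6.31 ± 0.69).

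**Figure D3:**
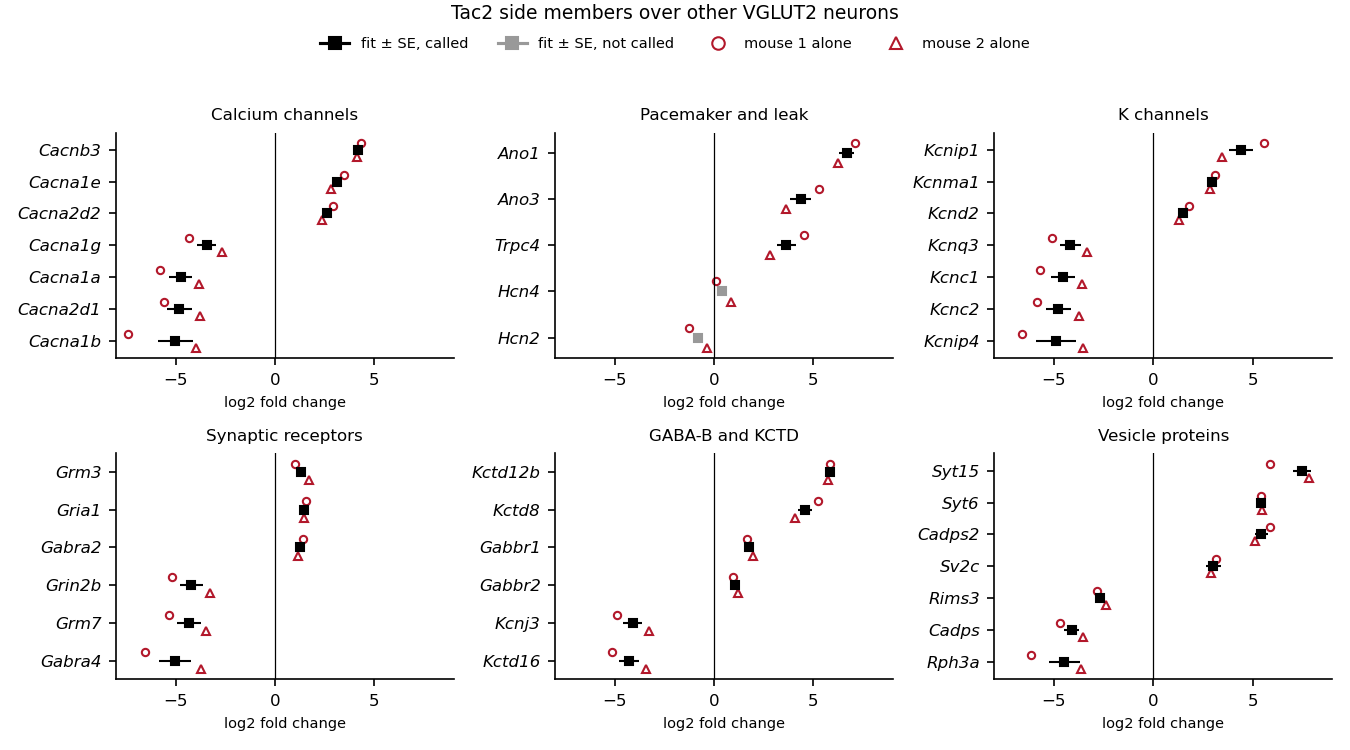
Log2 fold changes of Tac2 side neurons over other VGLUT2 neurons for channel, receptor and vesicle genes, with squares and bars for the fit ± SE (black where called, grey where not), open circles for mouse 1 alone and open triangles for mouse 2 alone. In each panel some genes lie right of 0 and others left of it, and each called gene lies on the same side in both mice; Hcn4 and Hcn2 were not called. The genes plotted were chosen after their values were seen, and the calls came from these same mice.

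Calcium-binding proteins had 5 of 21 genes called higher and 9 lower, with a median of −0.91. Necab3 had 639 and 435 CPM in Tac2 side neurons, against 45.8 and 26.7 CPM in other VGLUT2 neurons (3.87 ± 0.18) and Necab2 stood at 3.10 ± 0.34, whereas Necab1, a gene of some thalamic nuclei, had 3.11 and 49.2 CPM in Tac2 side neurons, against 237 and 553 CPM in other VGLUT2 neurons (−4.60 ± 0.72, a call lost without the mouse block). Sncg, gamma-synuclein, had 144 and 151 CPM in Tac2 side neurons, against 2.80 and 8.18 CPM in other VGLUT2 neurons (4.77 ± 0.53), and Vsnl1, a neuronal calcium sensor, had 5.63 and 45.8 CPM in Tac2 side neurons, against 716 and 660.1 CPM in other VGLUT2 neurons (−4.98 ± 1.04). Vsnl1 and Necab1 lost their calls with no filter on low counts, and Vsnl1 also at 5% mitochondrial UMIs.

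In the vesicle release list 7 of 36 genes were called higher and 14 lower, with a median of −0.54. Syt6 had 310.1 and 289 CPM in Tac2 side neurons, against 7.12 and 6.50 CPM in other VGLUT2 neurons (5.42 ± 0.26) and Syt9, a fast calcium sensor, had 1858 and 1385 CPM in Tac2 side neurons, against 178 and 127 CPM in other VGLUT2 neurons (3.38 ± 0.19). Syt15 had 24.8 and 96.2 CPM in Tac2 side neurons, against 0.303 and 0.382 CPM in other VGLUT2 neurons (7.48 ± 0.45), with the difference between the mice seen in the members alone. Sv2c, a synaptic vesicle protein, had 105 and 58.2 CPM in Tac2 side neurons, against 11.5 and 7.79 CPM in other VGLUT2 neurons (3.02 ± 0.36). Syn2, a synapsin, had 25.8 and 62.0 CPM in Tac2 side neurons, against 260.3 and 716 CPM in other VGLUT2 neurons (−3.48 ± 0.30), and Rph3a, rabphilin, had 2.22 and 19.2 CPM in Tac2 side neurons, against 169.6 and 239 CPM in other VGLUT2 neurons (−4.48 ± 0.79). Rims3, a protein of the active zone, was lower (−2.69 ± 0.25). The call of Rph3a was lost with no filter on low counts.

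Transcription factors held more called genes that were higher than lower, 20 and 11 of 48, with a median of 1.15. Pou4f1 (Brn3a), required for habenular development, had 285 and 299.8 CPM in Tac2 side neurons, against 4.43 and 7.39 CPM in other VGLUT2 neurons (5.62 ± 0.23, edgeR adjusted p = 9.52e-05). Nr4a2 (Nurr1), a nuclear receptor, had 599.8 and 693 CPM in Tac2 side neurons, against 8.22 and 13.2 CPM in other VGLUT2 neurons (5.89 ± 0.27). Of the Iroquois genes, Irx1 stood at 84.9 and 60.3 CPM in Tac2 side neurons, against 2.01 and 1.77 CPM in other VGLUT2 neurons (5.20 ± 0.20), Irx2 at 5.02 ± 0.18 and Irx5 at 5.18 ± 0.35. Neurod1 had 225 and 180.1 CPM in Tac2 side neurons, against 9.92 and 9.41 CPM in other VGLUT2 neurons (4.35 ± 0.29). Lmo3, a transcriptional cofactor, had 260.3 and 242 CPM in Tac2 side neurons, against 10.0 and 12.7 CPM in other VGLUT2 neurons (4.43 ± 0.18). Zic1, 1 of the markers given with the name, was shared with other VGLUT2 neurons at a lower level there, with 878 and 905 CPM in Tac2 side neurons, against 355 and 242 CPM in other VGLUT2 neurons (1.54 ± 0.27). Factors of the thalamus were lower: Rora had 303 and 310.3 CPM in Tac2 side neurons, against 2455 and 2069 CPM in other VGLUT2 neurons (−2.91 ± 0.21), Gbx2 stood at −4.14 ± 0.54 and Rorb at −3.74 ± 0.32.

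Axon guidance and adhesion genes had 9 of 67 called higher and 33 lower, with a median of −1.39. Robo3, a Robo receptor that acts in midline crossing, had 251 and 195 CPM in Tac2 side neurons, against 3.67 and 2.84 CPM in other VGLUT2 neurons (6.06 ± 0.19, edgeR adjusted p = 6.78e-05). Nrp2, a receptor of class 3 semaphorins, had 706 and 603 CPM in Tac2 side neurons, against 20.6 and 25.6 CPM in other VGLUT2 neurons (4.77 ± 0.25). Within the Slit ligands, Slit2 had 465 and 884 CPM in Tac2 side neurons, against 26.7 and 49.9 CPM in other VGLUT2 neurons (4.09 ± 0.24), and Slit3 had 12.7 and 28.3 CPM in Tac2 side neurons, against 233 and 258 CPM in other VGLUT2 neurons (−3.77 ± 0.41). Epha4, an ephrin receptor, had 5.78 and 27.6 CPM in Tac2 side neurons, against 498 and 361 CPM in other VGLUT2 neurons (−4.89 ± 0.77), and Cntnap5a had 0.593 and 9.26 CPM in Tac2 side neurons, against 203 and 218 CPM in other VGLUT2 neurons (−5.52 ± 1.00). Epha4 and Cntnap5a were not called with no filter on low counts, nor Epha4 at 5% mitochondrial UMIs.

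Outside the lists, Pde2a, a phosphodiesterase that cyclic GMP stimulates, had 613 and 468 CPM in Tac2 side neurons, against 6.89 and 10.5 CPM in other VGLUT2 neurons (5.95 ± 0.34), and Tspan18, a tetraspanin, had 511 and 299 CPM in Tac2 side neurons, against 3.75 and 6.04 CPM in other VGLUT2 neurons (6.27 ± 0.42). Wfikkn2 (7.54 ± 0.37), Tpbgl (7.30 ± 0.37), Ccdc155 (6.36 ± 0.18) and the laminin chain Lamc3 (6.21 ± 0.62) were the others higher by the same rule. The 6 lower genes were Ctxn3 (−6.77 ± 0.85), Fstl4 (−5.64 ± 0.68), Hs3st4 (−5.64 ± 0.42), Tmem132c (−5.61 ± 0.39), Fras1 (−5.28 ± 1.05) and Arpp21 (−5.24 ± 0.60). Arpp21, a cyclic AMP-regulated phosphoprotein, had 5.93 and 19.7 CPM in Tac2 side neurons, against 449 and 368 CPM in other VGLUT2 neurons. Limits of this whole comparison are that its spread rests on 2 animals, and that without the filter on low counts Chrna3, Chrnb3, Ctxn3, Fstl4 and Fras1 were no longer called (Fras1 also at 5% mitochondrial UMIs and with only the 2 groups). With cells under 1% ribosomal protein UMIs left out of all groups, 3021 genes were called, and over all alternatives 5 cholinergic genes and 1 to 3 nicotinic subunits were called higher.

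Members of the mice differed in a small share of genes, immediate early genes among them. Of 4009 genes with a mean of at least 50 CPM in Tac2 side neurons, 112 (2.79%) differed by more than 2-fold between the mice, 30 higher in mouse 1 and 82 in mouse 2, and among other VGLUT2 neurons this was 105 of 4171 (2.52%). With 1 library per mouse no test was possible. Fos, an immediate early gene, had 26.1 CPM in members of mouse 1 and 442 CPM in those of mouse 2, and Jun had 10.2 and 410.0 CPM. Other VGLUT2 neurons moved the same way, with 33.8 and 200.4 CPM of Fos and 41.1 and 264 CPM of Jun. Calb2, a calcium-binding protein, had 101 and 402 CPM in members. In the immediate early and stress list 2 of 30 genes were called higher and 2 lower than in other VGLUT2 neurons, with a median of −0.32. Arc was one of those higher, with 9.19 and 36.9 CPM in Tac2 side neurons, against 1.86 and 7.004 CPM in other VGLUT2 neurons (2.31 ± 0.32, a call lost without the mouse block).

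The Tac1 side, the other division of the same gate, held no cell of the 6019 in mouse 1, a count that allows a share of up to 0.0498% by the limit of 3 counts and 0.0613% by the exact 95% interval, and 8 of 8527 in mouse 2. The comparison therefore rests on mouse 2, with the single Tac1 side sum assumed to vary like the other groups. Chat had 117 CPM in Tac2 side neurons, against no UMI among the 253023 of the Tac1 side, at least 9.88-fold higher when the floor of 3 counts (11.9 CPM) is used. Chrnb3 had 96.2 CPM in Tac2 side neurons, against no UMI, at least 8.11-fold higher on the same floor. Slc5a7 had 348 CPM in Tac2 side neurons, against 67.2 CPM, and Lmo3 had 242 CPM, against 7.90 CPM from 2 UMIs. The Tac1 side also carried Chrna3, with 317 CPM in Tac2 side neurons, against 209 CPM, as well as Slc17a6 (240.1 against 225 CPM) and Kctd8 (1815 against 1577 CPM). Calb1, a calcium-binding protein, had 99.7 CPM in Tac2 side neurons, against 577 CPM in the Tac1 side. Gpr151 had 279.8 CPM in Tac2 side neurons, against 719 CPM in the Tac1 side. Calls against other VGLUT2 neurons do not by themselves set the Tac2 side apart from the Tac1 side.

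None of these differences passed. The edgeR test called 0 of 16362 genes (0%), with 1736 at an unadjusted p below 0.05 and the smallest adjusted p of 0.0799 for Lmo3 and Rimklb, and DESeq2 called 130. With cells rich in glial RNA left out, 1 gene was called. At least 5 Tac1 UMIs were found in 5 and 14 members, in which the rule requires at least as many of Tac2. These cells held 97.3% and 88.0% of the members' Tac1 UMIs, and 1 member of mouse 1 had 182 Tac1 and 200 Tac2 UMIs. None of the 14 in mouse 2 had a Chat UMI. Of the 5 in mouse 1, 1 cell had 1 Chat UMI and the rest had none. The median over all members was 7.5 and 3 Chat UMIs. Over all members a Chat UMI was found in 92.9% and 81.9%. These cells with at least 5 Tac1 UMIs, all but 1 without a Chat UMI, stayed in the main values. Whether they belong to the Tac1 side was not tested.

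The members varied in Tac2 itself. Members with at least 5 Tac2 UMIs and more Tac2 than Tac1, called Tac2-rich here, numbered 83 of 126 in mouse 1 and 164 of 216 in mouse 2, and the other 43 and 52 members fell short. Median depth was 54148 and 32976.5 UMIs in Tac2-rich members, against 48385 and 23807 UMIs in other members. The cut-off of 5 UMIs was not scaled to depth, whose part in the split was not tested. Tac2, which made this split, had 1878 and 1394 CPM in Tac2-rich members, against 23.9 and 36.3 CPM in other members. A Tac2 UMI was found in 67.4% and 50% of the other members, against 8.15% and 2.42% of oligodendrocyte-gated cells. The split ran alongside RNA content. Messenger RNA of ribosomal proteins had a median share of 3.87% and 4.54% in Tac2-rich members, against 0.293% and 0.453% in other members. Under 1% stood 11 of 83 and 7 of 164 Tac2-rich members, against 29 of 43 and 29 of 52 other members, and the part of this in the split was tested only by leaving such cells out. Such cells were not particular to the members. They made up 35.6% and 42.5% of other VGLUT2 neurons and 28.4% and 27.0% of GABAergic neurons.

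**Figure D4:**
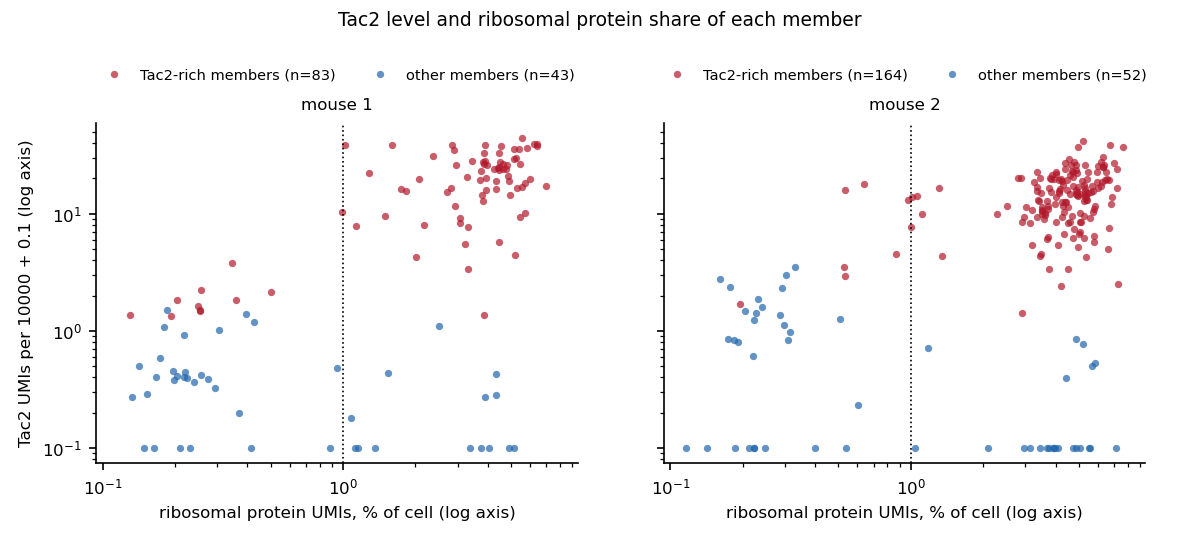
Tac2 UMIs per 10000 (plus 0.1, log axis) against the share of ribosomal protein UMIs (log axis) for each of the 126 members of mouse 1 and the 216 of mouse 2, Tac2-rich in red and the other members in blue. Cells fall on both sides of the dotted line at 1%, and below it 29 other members of each mouse lie beside 11 and 7 Tac2-rich members.

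With all members, Tac2-rich cells differed from the others in 3 of 15842 genes (0.0189%), of which 1 was higher (0.00631%), the gate gene Tac2, and 2 were lower (0.0126%), and 4222 genes had an unadjusted p below 0.05. Slc1a2, the glutamate transporter GLT-1, had 12.2 and 19.6 CPM in Tac2-rich members, against 92.1 and 119.6 CPM in other members (log2 fold change −2.81 ± 0.24, edgeR adjusted p = 0.0240). Dlc1, a GTPase-activating protein, had 25.1 and 26.8 CPM in Tac2-rich members, against 85.6 and 94.7 CPM in other members (−1.85 ± 0.18, edgeR adjusted p = 0.0392). Both calls were lost in 6 of 15 settings, among them the one with only cells of at least 1% ribosomal protein UMIs, which called no gene (1053 at an unadjusted p below 0.05). Thalamic markers summed to 198 and 293 CPM in Tac2-rich members, against 608 and 890.1 CPM in other members, and other VGLUT2 neurons had 361 and 457 CPM of Slc1a2. Of the members rich in thalamic RNA, 1 and 4 were Tac2-rich and 4 and 7 were other members, and without them 1 gene was called.

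Cells of at least 1% ribosomal protein UMIs, 72 and 157 Tac2-rich and 14 and 23 other members, allowed a closer look with no test. These cells were chosen after the values were seen. Tac2, which made the split, had 2089.9 and 1411 CPM in Tac2-rich members, against 12.1 and 12.003 CPM in other members. Chat, Chrna3 and Chrnb3 overlapped between them. Chat had 119.9 and 102 CPM in Tac2-rich members, against 126 and 115 CPM in other members. For Chrna3 the values were 459 and 329.6 CPM in Tac2-rich members, against 362 and 319 CPM in other members. Chrnb3 had 201 and 91.6 CPM in Tac2-rich members, against 211 and 119 CPM in other members. Some of the genes looked at kept apart in both mice, and Zic1, Pou4f1, Nppa and Rora did so as well. How many of all genes keep apart was not counted, and the test in these cells called none. Ebf3, a transcription factor, had 10.9 and 15.1 CPM in Tac2-rich members, against 67.3 and 80.4 CPM in other members, and Plxna4, a semaphorin co-receptor, had 23.9 and 23.2 CPM in Tac2-rich members, against 86.1 and 74.4 CPM in other members. Dlc1 had 24.2 and 27.6 CPM in Tac2-rich members, against 80.6 and 84.0 CPM in other members. Within this split Gpr151 was higher in the Tac2-rich part, with 209 and 331 CPM, against 55.2 and 149 CPM in other members. It stood higher still in the Tac1 side, where most cells had no Tac2 UMI. Slc1a2 overlapped, with 13.1 and 19.7 CPM in Tac2-rich members, against 13.2 and 49.2 CPM in other members.

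**Figure D5:**
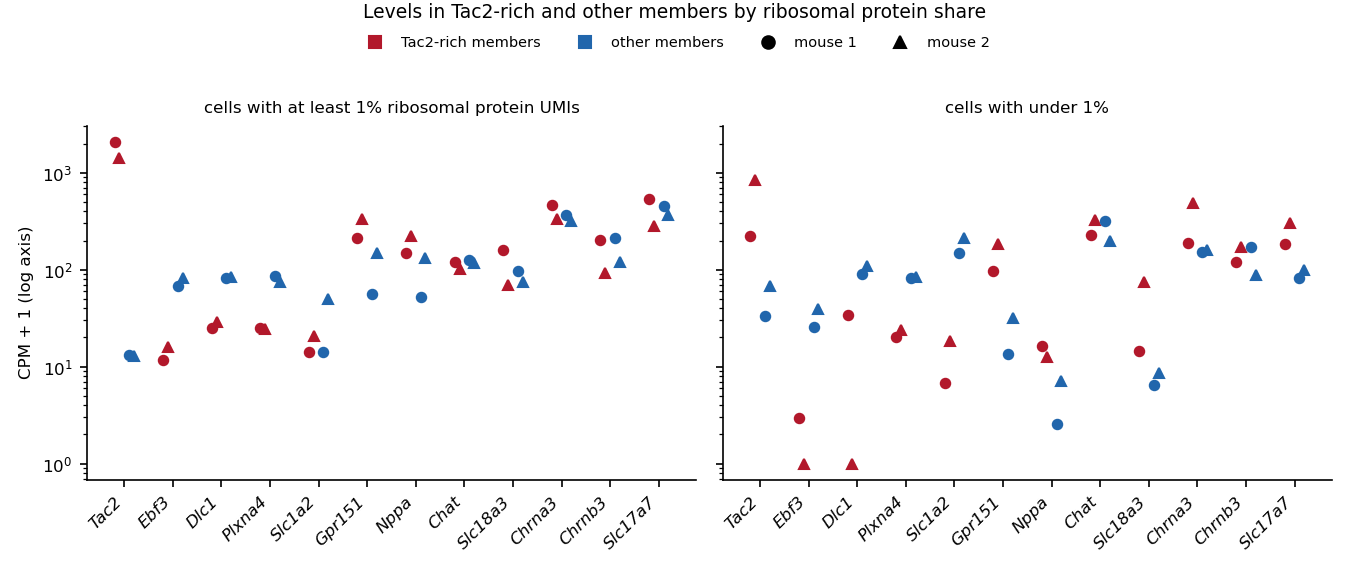
CPM + 1 (log axis) in Tac2-rich members (red) and other members (blue), circles for mouse 1 and triangles for mouse 2, with cells of at least 1% ribosomal protein UMIs on the left and the rest on the right. On the left the values of Ebf3, Dlc1, Plxna4, Gpr151 and Nppa over both mice do not overlap between the parts, while those of Chat, Chrna3 and Chrnb3 do. Tac2 made the parts, and the genes plotted were chosen after their values were seen. The share of all genes that do not overlap was not counted, and the test in the cells on the left called no gene.

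Across single members the level of Tac2 ran with a few other genes, given here as a description over cells that share a library and with no test. Spearman's rank correlation with Tac2 was 0.79 in the 126 members of mouse 1 and 0.53 in the 216 of mouse 2 for Pcp4, a calmodulin regulator. For Syt4 it was 0.59 and 0.44 and for Zic1 0.56 and 0.44. Ebf3 had −0.41 and −0.33. The share of ribosomal protein UMIs also differed between members rich and poor in Tac2, and its part in these values was not tested.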

How the data were processed

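Whole-number UMI counts per gene and barcode were deposited by the authors for 2 libraries, 1 per mouse. Cell Ranger 7.1.0, Seurat 5 and the build mm10 are named per the submitters' processing notes, without their roles, and no source used here gives the gene annotation, intron use or strand setting. The matrices held 32285 features.

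Cells were gated by the rule, and Scrublet (scanpy 1.11.5, Python 3.11.15) was run per mouse, marking 187 and 268 cells, without removing them. Counts were summed per mouse and group into 7 sums (9 with the members split at Tac2), since cells of 1 animal are not replicates. These entered the quasi-likelihood test of edgeR 4.0.16 (R 4.3.3) with TMM scaling, filterByExpr and the mouse as a block, because every group comes from the same 2 animals. DESeq2 1.42.0, other gates, thinning to 5000 UMIs, no filter on low counts, no block and each mouse alone were tried as alternatives, and leaving out cells of low ribosomal share or rich in thalamic RNA was added after seeing the data. The test was checked on simulated counts. Exact binomial intervals and the floor of 3 counts cover counting error only.

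The members and the 21 gene lists were chosen with earlier results of these data known. Named were all detected nicotinic, glutamate release and cholinergic genes, the 4 called genes of greatest change (either direction) in each other list, if both mice moved alike and the higher group reached 50 CPM, and up to 6 in each direction outside the lists. Other genes named in the text were chosen after their values were seen. Some genes that the rule named are not reported here. GENCODE vM21 and RefSeq gave coordinates and promoters.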

Additional observations from a re-analysis of the deposited data

How the results depend on the processing

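The count of genes called between Tac2 side and other VGLUT2 neurons stayed within 1.5 times of 3267 under every alternative run, from 2349 with thinned cells to 3553 without Scrublet doublets. It was 2500 with no replicate block, and by either mouse alone 3022 to 3126 of the 3267 held direction and fold limit. The 3267 were called from these same mice, so this is no independent check. Of the 81 genes named by the rule, 50 stayed called in every setting; of the 31 others 27 were lost with no filter on low counts. Of 47 called genes named beyond it, 37 stayed called. With no replicate block the calls of Lynx1, Maob, Necab1, Slc17a8, Slc18a2, Il18, Pcsk1, Gabra2 and Arc were lost; Slc18a2 was also lost at 5% mitochondrial UMIs and Slc17a8 without glial-rich cells. Of the uncalled genes, Chrnb2 turned to 0.16 without the Slc17a6 clause, and leaving out a mouse gave −0.16 to 0.14 for Chrnb2 and −0.94 to 0.43 for Chrna7. The causes were not tested.

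Against the Tac1 side, 0 genes became 130 with DESeq2, 97 with no filter on low counts, 23 with thinning, 9 with Chrnb4 at 1 UMI or more, and 1 each without Scrublet doublets, glial-rich cells or cells rich in thalamic RNA. A fit of these 2 groups only, or without mouse 2, was not possible, and the comparison without mouse 1 is the comparison itself. Between Tac2-rich and other members, 3 genes became 1309 (Chrnb4 at 1 or more), 857 (thinned), 849 (only these groups), 571 (DESeq2), 490 (no filter on low counts), 6 (without glial-rich cells), 1 (at most 5% mitochondrial UMIs, Chrnb4 at 4 or more, no Scrublet doublets, or no cells rich in thalamic RNA) and 0 (ribosomal share of at least 1%, or no replicate block). In either mouse by itself all 3 kept their direction and a change of at least 1. The 3 genes were called from these same mice and include the gate gene Tac2, so this is no independent check.

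The 126 members of mouse 1 became 36 at 5% mitochondrial UMIs, 151 at Chrnb4 of 1 or more, 82 without glial-rich cells, 86 at a ribosomal share of at least 1%, and 126 at 10000 UMIs, where their share was 2.49%. The 216 of mouse 2 became 277 at Chrnb4 of 1 or more, 165 at 4 or more, 187 without glial-rich cells and 214 at 10000 UMIs.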
